A study of Mus musculus with 6 samples.

Results

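The tumour suppressor p53, its regulator Mdm2 and genes that p53 activates were followed in mouse embryonic stem cells with and without 3 linker histones. The genes were taken by symbol: Trp53, Mdm2, Cdkn1a, Perp, Phlda3, Btg2, Ccng1, Bax, Gadd45a and Fas. Of these 10 genes, 8 had a probe set listed under their symbol alone (10 probe sets of 12488 on the array). Trp53 and Bax had none and are not analysed here beyond 2 probe sets listed with the Trp53 pseudogene. Signal was measured on 6 one-colour arrays: 2 of wild-type cells, 2 of H1 triple-null line 1 and 2 of H1 triple-null line 2, with 1 array of each line numbered experiment 1 and 1 numbered experiment 2. Both null lines lack H1c, H1d and H1e (now H1f2, H1f3 and H1f4), somatic linker histones, which sit on the outside of the nucleosome and help to compact chromatin. RNA came from exponentially growing cells, and no agent that damages DNA is named in the labels. Whether the paired arrays of each line stem from separate cultures, how the null lines were derived and whether feeder cells were present is not stated in the labels.

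p53 is a transcription factor that is kept scarce by Mdm2, a ubiquitin ligase which marks it for degradation and is itself a p53 target. When p53 accumulates it binds DNA as a tetramer, at pairs of a decamer sequence, and activates genes that stop the cell cycle, repair DNA or start apoptosis. Embryonic stem cells are known for abundant p53 and a short G1 phase.

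Sequence just before the start of transcription was read from RefSeq windows of assembly GRCm38.p6, which reach from 250 bases before to 50 bases after each annotated start. Windows were at hand for 9 of the 10 genes, all but Perp. The p53 consensus decamer, which reads the same on both strands, was found in the windows of 6 of the 9 genes, against 9.55% of the 27025 genes that have a window. The stretches around these matches are shown because they tell which genes carry the p53 letters next to their start, with the decamer in capitals.
Trp53, chr11:69580259-69580318, plus strand: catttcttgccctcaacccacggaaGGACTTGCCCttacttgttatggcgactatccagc
Mdm2, chr10:117710910-117710969, minus strand: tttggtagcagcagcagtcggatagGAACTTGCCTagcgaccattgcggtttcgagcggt
Cdkn1a, chr17:29090881-29090962, plus strand: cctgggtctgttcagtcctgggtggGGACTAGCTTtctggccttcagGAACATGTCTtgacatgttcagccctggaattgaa
Ccng1, chr11:40755437-40755496, minus strand: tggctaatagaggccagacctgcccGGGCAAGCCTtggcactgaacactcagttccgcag
Bax, chr7:45467065-45467124, minus strand: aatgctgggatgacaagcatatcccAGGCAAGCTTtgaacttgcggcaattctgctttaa
Gadd45a, chr6:67037413-67037472, minus strand: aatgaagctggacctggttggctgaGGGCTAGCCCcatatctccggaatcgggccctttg

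Only Cdkn1a, at the upstream of its 2 annotated starts, held 2 decamers with at most 13 bases between them, a feature of 24 of all 32851 windows. They begin 73 and 51 bases before that start. The letters tgacatgttc, which directly follow the second decamer, miss the consensus only at their first letter. The search for exact matches leaves them out, so they are not in capitals. The window of the other Cdkn1a start held no exact match. The windows of Btg2, Phlda3 and Fas held no exact match either, which says only that these letters are not in this stretch. The 250 bases before the starts of Btg2 and Phlda3 are shown because these genes, with Perp and Ccng1, were lower on every null array than on both wild-type arrays. This was so for 12.0% of the 7453 probe sets tested, and for Ccng1 by a narrow margin. A link between these letters and the signal was not tested.
Btg2, chr1:134079156-134079405, minus strand: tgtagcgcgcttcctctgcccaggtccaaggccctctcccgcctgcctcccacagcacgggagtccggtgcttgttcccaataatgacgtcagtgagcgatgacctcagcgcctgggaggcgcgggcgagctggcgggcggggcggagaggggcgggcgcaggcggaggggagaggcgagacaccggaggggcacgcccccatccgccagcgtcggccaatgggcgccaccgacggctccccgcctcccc
Phlda3, chr1:135765835-135766084, plus strand: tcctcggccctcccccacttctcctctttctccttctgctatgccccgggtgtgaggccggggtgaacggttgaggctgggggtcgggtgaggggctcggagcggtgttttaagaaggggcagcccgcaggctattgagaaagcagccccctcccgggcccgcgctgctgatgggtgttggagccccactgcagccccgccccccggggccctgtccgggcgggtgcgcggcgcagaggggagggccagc

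The median signal per array was 34.1 to 39.5 intensity units, and the highest of 19 bacterial and yeast background controls between 9.1 and 17.2 per array. The targeted gene H1f2 measured 70.0 and 68.2 in wild-type cells and 11.1 to 14.4 on the null arrays (limma adjusted p = 0.00119), while the probe sets of H1f3 and H1f4 lay at or below background on every array and check nothing. The embryonic stem cell factor Pou5f1 measured 1498 to 1787 across the 6 arrays.

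No difference of Mdm2 or of the p53 target genes between null and wild-type cells passed the test across all probe sets. Perp had the largest estimate, 1.74-fold lower in the null cells, and Gadd45a was level. Of the 7 genes whose signal was high enough to be tested, none reached limma's adjusted p of 0.05 in the average of the null lines, where 0.456% of the 7453 probe sets tested did (0.161% on the lower side). At an unadjusted p under 0.05 there were 2, Perp and Phlda3, both lower, where 7.18% of all probe sets were lower. All 7 estimates were below 0, that of Gadd45a rounding to 0.00, as were 52.7% of all probe sets. The median log2 change of the 7 genes was -0.33, beside -0.01 for all 7453 probe sets, and -0.18 without wild type replicate 1. In 4 of the 7 (Perp, Phlda3, Btg2 and Ccng1) all 4 null arrays lay below both wild-type arrays, which was so for 12.0% of all probe sets. The smallest two-sided p of an exact permutation test of 2 arrays against 4 is 0.0667, and the p-values given here therefore depend on limma's model of the spread. Such a test also counts the arrays of a line as independent. With a single wild-type line, a difference particular to that line cannot be told apart from an effect of the H1 deletions. In bulk RNA, fewer cells of a type and less RNA per cell cannot be told apart.

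**Figure D1:**
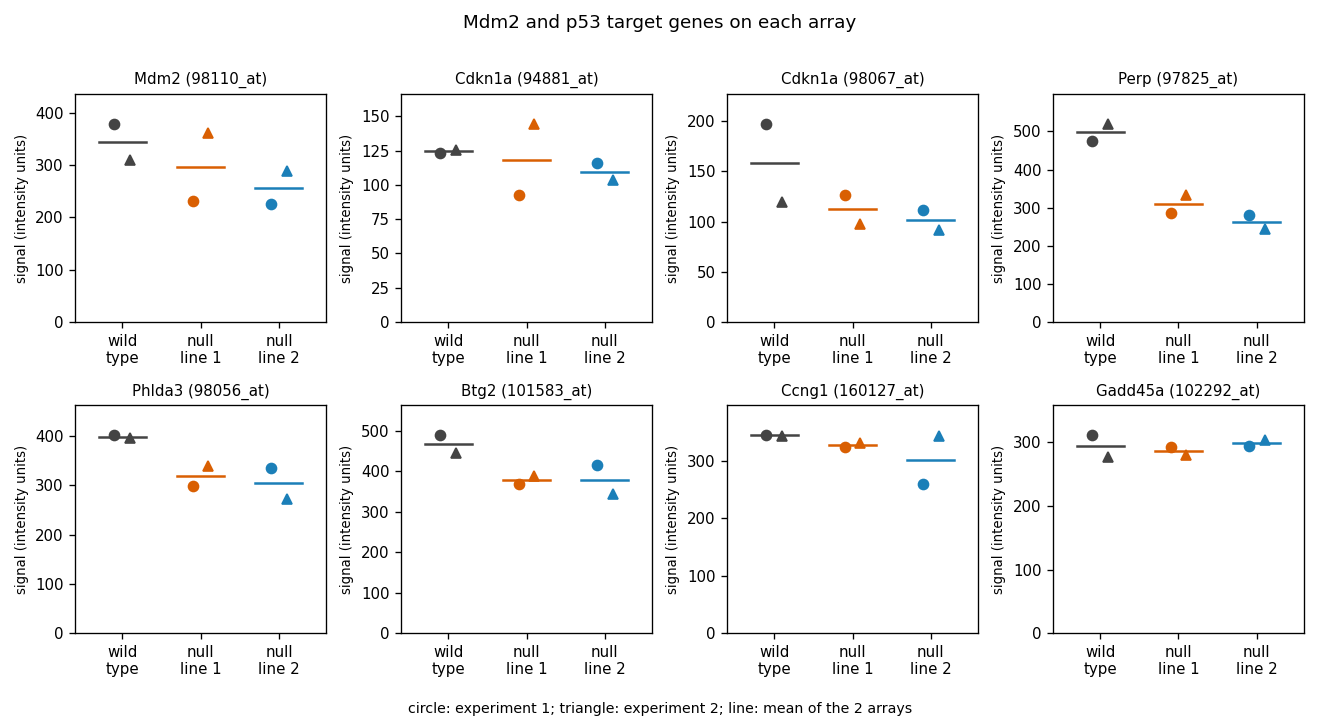
Signal of the 8 tested probe sets of Mdm2 and 6 p53 target genes on each of the 6 arrays (y axis, intensity units, from 0), by line (x axis). Circles are experiment 1, triangles experiment 2 and lines the mean of 2 arrays. Perp, Phlda3, Btg2 and Ccng1 had both wild-type arrays above all 4 null arrays, Ccng1 by a narrow margin.

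Of the regulators, Trp53 itself has no probe set of its own here. Probe sets 101617_s_at and 101618_r_at are listed with Trp53-ps, a pseudogene copied from Trp53, and signal of the gene and of the copy cannot be told apart. The first of them measured 98.7 and 115.6 in wild-type cells, 97.7 and 101.6 in line 1, and 87.3 and 81.3 in line 2. Line 2 was below the other lines on both arrays, while line 1 overlapped wild type. In the null average it came to -0.22 ± 0.12 on the log2 scale (SE, limma adjusted p = 0.499), and that of 101618_r_at was -0.30 ± 0.18 (SE, adjusted p = 0.533).

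Mdm2, the ubiquitin ligase of p53, measured 379.0 and 309.0 in wild-type cells, 231.0 and 362.0 in line 1, and 225.6 and 288.3 in line 2. Line 1 overlapped wild type, and both arrays of line 2 were below both wild-type arrays. The log2 difference of the null lines from wild type was -0.73 in experiment 1 and 0.06 in experiment 2. The fitted log2 change was -0.33 (95% confidence interval -0.86 to 0.20, limma adjusted p = 0.583), moving to -0.18 without wild type replicate 1 and to -0.17 without line 1 replicate 1.

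Among the genes that restrain growth, the 2 probe sets of Cdkn1a, which encodes the cyclin-dependent kinase inhibitor p21, did not move alike. Probe set 98067_at measured 197.4 and 119.2 in wild-type cells, 126.7 and 97.5 in line 1, and 111.5 and 91.4 in line 2. A single wild-type array, that of experiment 1, stood above the rest, and all 3 lines were lower in experiment 2. Its log2 change was -0.52 (95% confidence interval -1.09 to 0.04, limma adjusted p = 0.424), with -0.72 in experiment 1 and -0.33 in experiment 2. The change was -0.17 without wild type replicate 1 and -0.88 without wild type replicate 2. Probe set 94881_at measured 123.4 and 125.6 in wild-type cells, 92.3 and 144.6 in line 1, and 115.6 and 103.8 in line 2. Here line 1 lay on both sides of wild type, and the log2 change was -0.14 (95% confidence interval -0.60 to 0.32, adjusted p = 0.807), moving to 0.02 without line 1 replicate 1.

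Btg2, an antiproliferative protein that recruits the deadenylase of messenger RNAs, measured 488.8 and 445.0 in wild-type cells, 367.8 and 387.0 in line 1, and 414.2 and 343.6 in line 2. Both wild-type arrays lay above all null arrays, and the means of the null lines were 377 and 379. In the fit it differed by -0.30 ± 0.13 on the log2 scale (SE, limma adjusted p = 0.395), with -0.32 in experiment 1 and -0.29 in experiment 2. Ccng1, cyclin G1, which brings a phosphatase to Mdm2, measured 344.6 and 343.6 in wild-type cells, 324.4 and 330.9 in line 1, and 259.0 and 342.8 in line 2. The groups do not overlap, but the nearest null array lay within 1 intensity unit of wild type and a single array of line 2 stood low. The log2 change was -0.14 (95% confidence interval -0.48 to 0.20, adjusted p = 0.737), moving to -0.04 without line 2 replicate 1 and to -0.24 without line 2 replicate 2. Gadd45a, a stress-induced protein of growth arrest and DNA repair, measured 311.4 and 276.3 in wild-type cells, 292.9 and 280.4 in line 1, and 294.7 and 303.2 in line 2. All null values fell between the wild-type values. Its log2 change was 0.00, with a 95% confidence interval of -0.27 to 0.27 (adjusted p = 0.995).

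Among the genes of death and survival, Perp had the largest difference of the 7 genes tested. It encodes a small membrane protein with 4 spans that acts in p53-dependent apoptosis and in the desmosomes of stratified epithelium. Perp measured 474.6 and 520.3 in wild-type cells, 285.8 and 334.0 in line 1, and 279.4 and 244.1 in line 2. Every null array was well below both wild-type arrays, and both arrays of line 2 were below both of line 1. The means were 497 ± 32.3 (SD, n = 2) and 286 ± 37.0 (SD, n = 4), a log2 change of -0.80 ± 0.13 (SE, 95% confidence interval -1.11 to -0.49), which is 1.74-fold lower. Its unadjusted limma p was 0.00068 and its adjusted p 0.0859, above the threshold. The difference was -0.74 in experiment 1 and -0.86 in experiment 2. Over 14 other ways of processing it stayed between -0.87 and -0.74, and the adjusted p ran from 0.0143 to 0.553, past the threshold in 3 of them.

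Phlda3, a pleckstrin homology domain protein that inhibits the survival kinase Akt, measured 401.2 and 395.0 in wild-type cells, 298.2 and 339.2 in line 1, and 335.4 and 272.4 in line 2. The wild-type arrays were close to each other and above all 4 null arrays, while the null lines overlapped. The log2 change was -0.36 (95% confidence interval -0.68 to -0.04, limma unadjusted p = 0.0343, adjusted p = 0.347), with -0.34 in experiment 1 and -0.38 in experiment 2. Fas, the death receptor, was not well above background. Its probe set 102921_s_at measured between 0.4 and 1.2, and AFFX-MurFAS_at, a control probe set of the array, between 7.5 and 12.8, above the background control on 2 of the 6 arrays. Neither was tested.

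**Figure D2:**
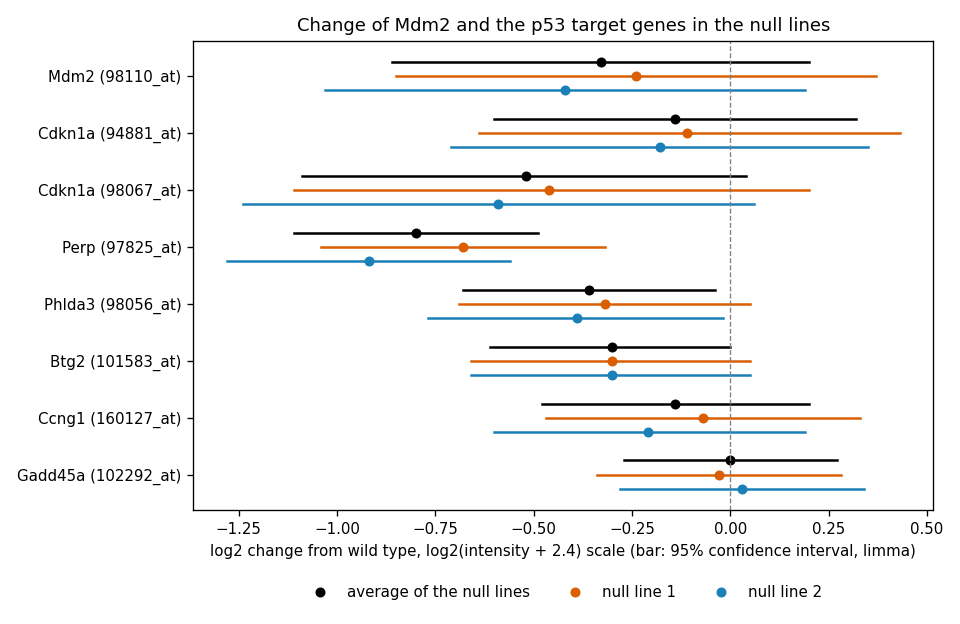
Log2 change from wild type (x axis, on the log2(intensity + 2.4) scale) of each tested probe set in the average of the null lines, in null line 1 and in null line 2, with 95% confidence intervals from limma. The interval of the average excludes 0 for Perp and Phlda3 before adjustment for 7453 tests, and no adjusted p reached 0.05.

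Taken line by line, against the same wild-type arrays, the 7 genes had a median log2 change of -0.30 in line 1 and -0.39 in line 2, and none passed the adjusted p in either (limma called 0.134% and 0.322% of all probe sets). At an unadjusted p under 0.05 there was 1 lower gene in line 1 and there were 2 in line 2, where 5.51% and 7.89% of all probe sets were lower (9.5% and 14.1% in either direction). In line 1 all 7 estimates were below 0 (52.6% of all probe sets) and 4 genes had both null arrays below both wild-type arrays (20.6%). In line 2 these counts were 6 (51.8%) and 6 (25.2%). Perp had a log2 change of -0.68 ± 0.15 (SE, adjusted p = 0.253) in line 1 and -0.92 ± 0.15 (SE, adjusted p = 0.103) in line 2. The difference between the lines was 0.24 (95% confidence interval -0.12 to 0.60, adjusted p = 0.694). In the test of line 1 against line 2 none of the 7 genes passed, and none had an unadjusted p under 0.05 (7.54% of all probe sets did, 3.5% with line 1 lower, and 0.0268% passed adjustment). The log2 differences ran from -0.06 for Gadd45a to 0.24 for Perp. Perp was higher on both arrays of line 1 (18.9% of all probe sets were), and 1 gene, Gadd45a, was lower on both (20.2%).

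Genes whose profile over the 6 arrays was most like that of Perp were Krt8, Tmbim1 and Tinagl1. Likeness was the root mean square difference of log2 values, each centred on its own mean over 6 arrays, among 6724 probe sets, and came to 0.06 for Krt8, 0.08 for Tmbim1 and 0.08 for Tinagl1. Krt8, a keratin of simple epithelia, differed by -0.71 ± 0.11 on the log2 scale (SE, limma adjusted p = 0.0898). Mean signals of Tmbim1, a membrane protein with a Bax inhibitor motif, were 68.5 without and 38.3 with the H1 deletions (-0.80, adjusted p = 0.122). Those of Tinagl1, a secreted matrix protein, were 69.8 and 39.7 (-0.78, adjusted p = 0.119).

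Perp belongs to a family of proteins with 4 membrane spans that includes Pmp22, of peripheral nerve myelin, and the epithelial membrane proteins. Emp1 measured 229.9 and 234.3 in wild-type cells, 131.1 and 116.8 in line 1, and 105.4 and 107.5 in line 2. It fell in the null average (-1.0 ± 0.11, SE, limma adjusted p = 0.0334) and passed in 6 of 14 other ways of processing, none of which leaves out an array. Pmp22 measured 369.6 and 412.7 in wild-type cells, 218.6 and 187.9 in line 1, and 180.6 and 225.6 in line 2, with no overlap (-0.94 ± 0.14, SE, adjusted p = 0.0759). A second probe set of Pmp22 was at background. Emp2 had a log2 change of -0.59 with overlapping arrays (adjusted p = 0.354), and Emp3 one of -0.05 (adjusted p = 0.933).

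Gadd45b, by its brighter probe set, and Gadd45g, stress-induced like Gadd45a, were lower on every null array than on both wild-type arrays. Gadd45b had wild-type signals of 197.8 and 180.3, with the null arrays from 105.1 to 112.0 (-0.79 ± 0.11, SE, limma adjusted p = 0.0594), and by its other probe set, 102779_at, 110 and 74.8 on average with overlapping arrays (-0.58, adjusted p = 0.367). Gadd45g had a log2 change of -0.44 (adjusted p = 0.25), as did Ccng2, a relative of cyclin G1 (-0.44, adjusted p = 0.186). Phlda2, an imprinted relative of Phlda3, was higher on every null array (268 and 405, 0.59 ± 0.10, SE, adjusted p = 0.118). In all, 12 of 15 listed relatives were tested, of which 1, Emp1, fell and none rose by limma's adjusted p. Of all probe sets 0.456% passed (0.161% lower). All null arrays lay below both wild-type arrays for 6 of the 12, where 12.0% of all probe sets did, and above both for 2. At an unadjusted p under 0.05 there were 6 lower and 1 higher, where 7.18% of all probe sets were lower and 12.7% either, and the list median was -0.40.

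**Figure D3:**
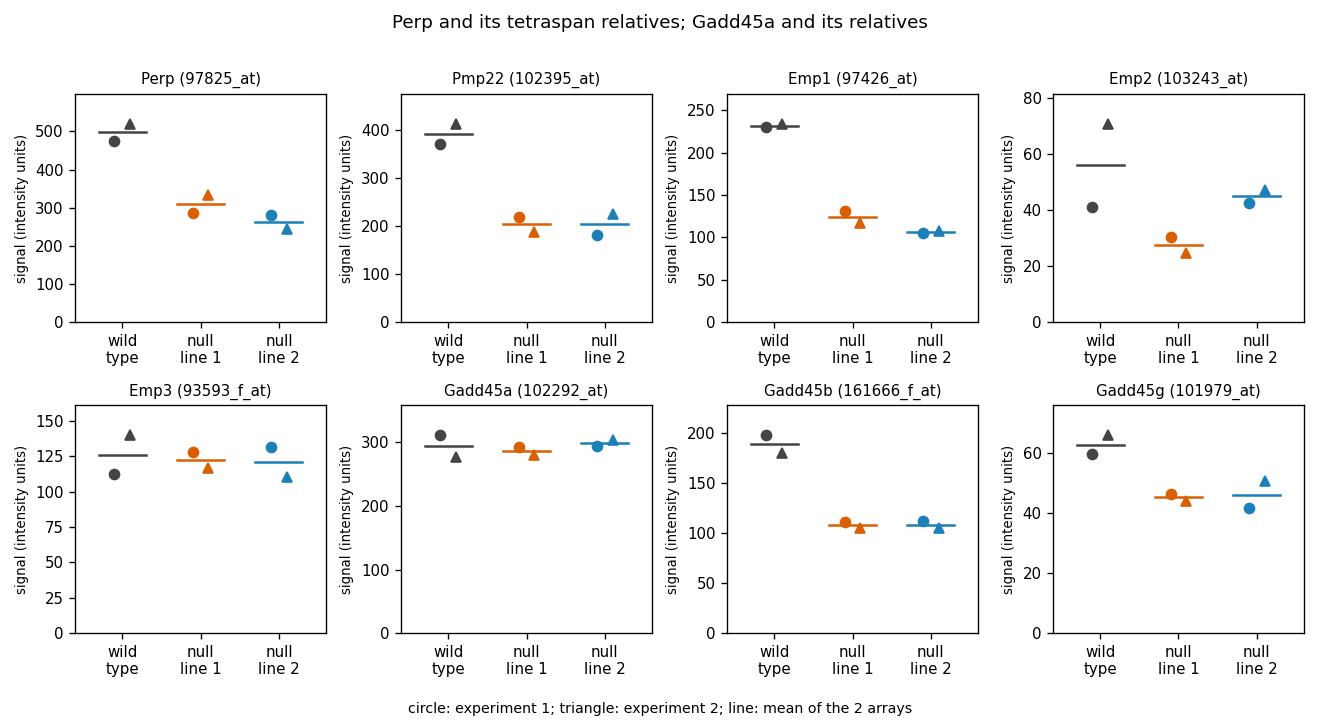
Signal (y axis, intensity units, from 0) of Perp and 4 tetraspan relatives and of Gadd45a and 2 relatives on each array, by line (x axis). Circles are experiment 1, triangles experiment 2 and lines means of 2 arrays. Perp, Pmp22, Emp1, Gadd45b and Gadd45g show wild-type arrays above all null arrays, and Emp2, Emp3 and Gadd45a do not.

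Since Perp is also a desmosome protein, a list of desmosome and simple epithelium genes was set beside it. Of 16 tested, none passed limma's adjusted p, 10 were lower at an unadjusted p under 0.05 (7.18% of all probe sets), 10 had all null arrays below both wild-type arrays (12.0% of all probe sets), and the median was -0.44. The desmosomal cadherin Dsc2 measured 58.8 and 31.5 (-0.85, adjusted p = 0.0548), the tight junction gene Cldn3 132 and 75.4 (-0.79, adjusted p = 0.109), and the keratin Krt18 1674 and 959 (-0.81, adjusted p = 0.115). Second probe sets of these genes were too dim to be tested. Other desmosome genes changed less: Dsp (-0.55, adjusted p = 0.174), Dsg2 (-0.42, adjusted p = 0.374), Jup (-0.26, adjusted p = 0.48) and Pkp2 (0.03, adjusted p = 0.942). The junction genes Cdh1, Epcam and Cdh3 were at -0.19, -0.16 and 0.00.

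Of 61 other genes that p53 can activate, 27 were tested and none passed limma's adjusted p. At an unadjusted p under 0.05 there were 3 lower (7.18% of all probe sets) and none higher, 13 estimates were above and 14 below 0, and the median was -0.01. Sfn, the 14-3-3 sigma protein of the G2 checkpoint, measured 1078 and 729 (-0.57, adjusted p = 0.192), the receptor tyrosine kinase gene Epha2 264 and 190 (-0.47, adjusted p = 0.226), the phosphatase gene Dusp1 607 and 495 (-0.29, adjusted p = 0.328) and Ndrg1 68.7 and 58.2 (-0.24, adjusted p = 0.479). By these probe sets each of the 4 was lower on every null array, which was so for 4 of the 27 genes and 12.0% of all probe sets. A second probe set of Ndrg1, 96596_at, overlapped (-0.23, adjusted p = 0.58).

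Of 15 regulators and partners of p53 tested, none passed, and at an unadjusted p under 0.05 there were 1 higher and 1 lower (12.7% of all probe sets in either direction). The estimates were above 0 for 12 and below 0 for 3 (52.7% of all probe sets were below 0), with a median of 0.13. The subunit Nfyb of the factor NF-Y had a log2 change of 0.29 (limma adjusted p = 0.344), the coactivator Crebbp 0.21 (adjusted p = 0.487) and the Mdm2 partner Daxx 0.19 (adjusted p = 0.594). Cdkn2a, the locus of the Mdm2 inhibitor Arf, measured 34.4 and 24.8, a log2 change of -0.43 (adjusted p = 0.307).

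The apoptotic machinery in which Bax and Fas act was tested through 19 genes of the BCL2 family and caspases and 7 of the death receptor pathway, and none passed. The medians were -0.08 and -0.19. Bcl2l11, the pro-apoptotic protein Bim, was lower by all 3 of its probe sets: 241 and 165 (-0.54, limma adjusted p = 0.132), -0.43 (99418_at, adjusted p = 0.275) and -0.62 (99419_g_at, adjusted p = 0.14). The survival gene Bcl2l1 measured 257 and 195 (-0.40, adjusted p = 0.257), while Birc5, an inhibitor of apoptosis, was at 0.23 (adjusted p = 0.482) and Aifm1 at 0.27 (adjusted p = 0.573). In the death receptor list the receptors Tnfrsf1a and Tnfrsf21 were at -0.27 (adjusted p = 0.424) and -0.34 (adjusted p = 0.446), and the adaptors Traf2 and Cradd at -0.19 (adjusted p = 0.569) and 0.32 (adjusted p = 0.686). Second probe sets of Tnfrsf1a (161194_r_at) and Cradd (102951_at) were at 0.08 and 0.02.

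Of 10 tested genes of cyclin-dependent kinases, cyclins and cell cycle regulators linked to p21, none passed. None had an unadjusted p under 0.05 by limma (12.7% of all probe sets did). Estimates of 9 were above 0, where 52.7% of all probe sets were below 0, and the median was 0.12. Cdk1 was at 0.23 (limma adjusted p = 0.473), Ccna2 and Cdc25c at 0.17 each (adjusted p = 0.578 and 0.63), and Cdc25a at 0.19 (adjusted p = 0.68). A second probe set of Cdc25c, 102935_at, was at 0.03.

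**Figure D4:**
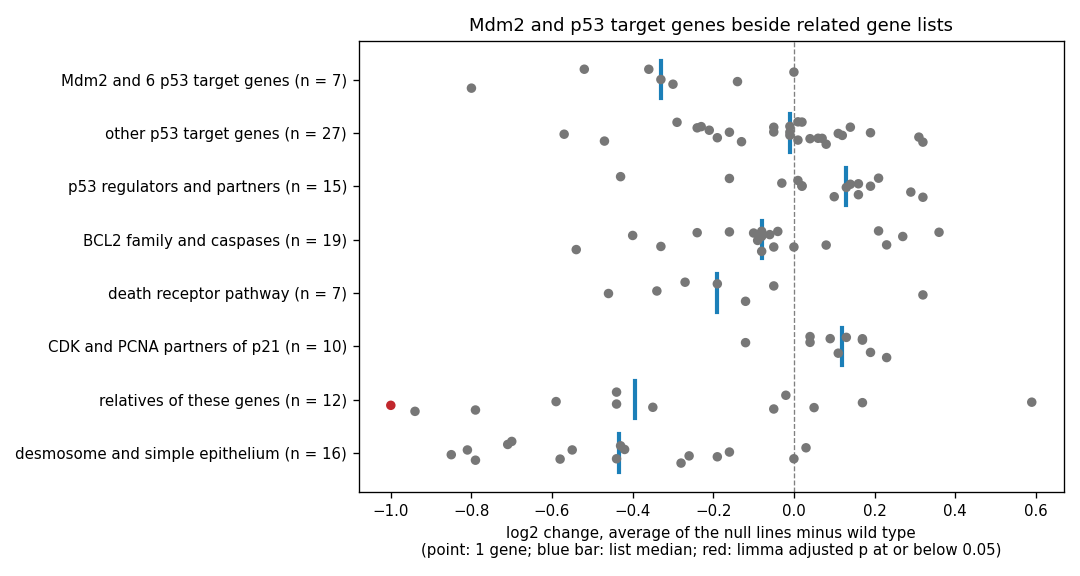
Log2 change of the average of the null lines from wild type (x axis) for each tested gene, by list (y axis). Points are genes, blue bars list medians and red points genes with a limma adjusted p at or below 0.05. The median of Mdm2 and the 6 p53 targets is -0.33 and that of the other p53 target genes -0.01, and of the 8 lists drawn only the relatives hold a called gene, Emp1.

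Markers of other cell types were summed on each array, and the sums were not tested. Beside the counts that follow, 52.7% of all probe sets had negative log2 changes in the null average. Of all probe sets, limma called 0.456% (0.161% lower). For 20 fibroblast markers, of which 11 were above background on every array, the sums were 2280 and 2424 in wild-type cells and 1851 to 1913 in the null cells. Of those tested, 9 of 11 had negative log2 changes (median -0.17), among them Timp3 (-0.66, limma adjusted p = 0.103), Acta2 (-0.71, adjusted p = 0.119), Sparc (-0.39, adjusted p = 0.304) and Fstl1 (-0.51, adjusted p = 0.464). The collagen gene Col1a1 was level at 158 and 160, and the fibroblast gene Postn lay at or below 10.5 on every array. Much of the difference in the sums came from Acta2 (561 and 345) and Sparc (602 and 458). Sparc is also counted among the endoderm markers. Col1a2 and Col6a1 were at 0.12 and -0.08. Of the untested genes, Col5a2 and Thy1 were higher and Dcn lower on every null array. For 18 markers of extraembryonic endoderm the sums were 3408 to 3710 in wild-type cells, 3407 to 3786 in line 1 and 2994 to 3108 in line 2. Apoe was the largest part of each sum. It measured 1689.4 and 1776.7 in wild-type cells, 2040.7 and 2460.8 in line 1, and 1833.2 and 1708.0 in line 2. Apoe was thus higher in line 1, where the sums were level, and overlapped wild type in line 2, where the sums were lower. Col4a1, Col4a2 and Sparc were lower on every null array than on both wild-type arrays. Of 12 tested, 8 were negative (median -0.20), Col4a2 fell (-0.84, adjusted p = 0.0424, passing in 6 of 14 other ways of processing and in none that leaves out an array), Col4a1 and Lamb1 were at -0.70 and -0.35 (adjusted p = 0.132 and 0.409, with Lamb1 at -0.40 by 162263_f_at), and Apoa1, Foxa2, Hnf4a and Pth1r were not above background on any array. For 11 markers of mesoderm and trophoblast the sums were 465 to 507 in wild-type cells and 354 to 418 in the null cells. Of 7 tested, 5 were negative (median -0.26), with Flt1 at -1.90 (adjusted p = 0.209) by its brighter probe set and -0.74 by 98452_at (adjusted p = 0.193), Twist1 at -0.52 (adjusted p = 0.192), Hand1 at -0.39 (adjusted p = 0.28, and -0.38 by 161468_f_at) and Krt7 at -0.26 (adjusted p = 0.522), and Cdx2 and Mesp1 were not above background on any array. Krt7 was lower in line 2 only (-0.56, against 0.05 in line 1), and Tbx6 and Ascl2 were at 0.00 and 0.09 in the null average. Sums of 15 embryonic stem cell markers were 8510 to 8630 in wild-type and 9164 to 10170 in null cells. Of 14 tested, 10 were positive (median 0.23) and Fbxo15 rose (1.05, adjusted p = 0.0449, passing in 5 of 14 other ways of processing and in none that leaves out an array), with Tcl1, Dppa3 and Utf1 at 0.52, 0.69 and 0.38 (adjusted p = 0.168, 0.186 and 0.281). The 4 stem cell markers below 0 were Tdgf1 (-0.38), Klf4 (-0.22), Nanog (-0.09) and Sox2 (-0.04). Pou5f1 was at 0.12 with overlapping arrays. The part of these cell types in the signals of Perp, Phlda3 and Btg2 was not tested.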

How the data were processed

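The authors deposited linear intensities, 1 for each probe set of each array. MAS5 is named in the submitters' processing notes, with no version. Their scaling was kept. Gene names came from GEO's platform annotation, updated by gene ID (GRCm38.p6), which matched 10817 of 10833 probe sets listed with 1 gene. Intensities were tested as log2(value + 2.4), the pseudocount being the 10th percentile, so fold changes of dim genes are understated. After 66 controls were left out, the 7453 probe sets with a mean at or above the 40th percentile (20.9) were tested. limma 3.58.1 (R 4.3.3) estimated a mean for each line from the 6 arrays together, and p-values were adjusted by Benjamini-Hochberg over all 7453. The procedure was tested on simulated data. P-values measure the spread between arrays of a line, which may be technical, and the number of arrays limits the precision. For a gene with several probe sets the brightest stands in counts. Named are all probe sets of the 10 genes, up to 4 genes per list with the smallest p, and the 3 genes nearest to Perp. The members and lists were chosen with earlier results of these data known. Exact decamer matches were searched in RefSeq windows of 300 bases. Figures were drawn with matplotlib 3.10.9. Alternatives covered pseudocount, filter, scaling, spread, experiment as a block, each array left out, grouping and probe set choice.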

Additional observations from a re-analysis of the deposited data

Results flagged for a closer look

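For 2 of 56 probe sets listed, 1 of the 4 null arrays stood apart from the other 3. Chance gives such a gap in about 1 of 20 groups. The 56 include the probe sets of H1f3 and H1f4 and 102921_s_at of Fas, which were too dim to be examined. Twist1 measured 20.9 on the experiment 1 array of line 2, with the next array at 17.2. Flt1 (98453_at) measured 40.7 on the experiment 2 array of line 2, with the next at 14.0. Without that array its log2 change was -2.37 in place of -1.90 (limma adjusted p = 0.209). The other null arrays, at 9.3 to 14.0, lay near the background controls, so the size of this change depends on the pseudocount. With a pseudocount of 16 it was -1.31. Twist1 and Flt1 are both mesoderm markers. No examined probe set of Mdm2 or of the p53 target genes had such an array.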

How the results depend on the processing

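None of the 7 genes passed limma's adjusted p of 0.05 in any comparison as reported, and the count became 1, Perp, in the null average with a pseudocount of 16, with a filter at the 60th percentile and with a prior that follows the mean signal, and 1, again Perp, in line 2 under the last 2 settings. The cause was not tested. In the null average, over the other 11 alternatives the count was 0. Over all probe sets the calls in the null average numbered 34 as reported and 7 to 101 across settings. Deviations of same-numbered arrays correlated only weakly, with r between 0.0542 and 0.0954 across probe sets. This does not tell whether such arrays shared an experiment. With experiment as a replicate block the counts stayed at 0, Perp had an adjusted p of 0.156, and Emp1, Fbxo15 and Col4a2 no longer passed (adjusted p = 0.0806, 0.0925 and 0.0936). Without a filter these 3 did not pass either (0.185, 0.198 and 0.198), nor did they with any 1 array left out (0.0829 to 0.409). When each array was left out in turn, Cdkn1a (94881_at) ranged from -0.30 to 0.02 in the null average and from -0.42 to 0.21 in line 1, Mdm2 from -0.56 to 0.08 in line 1, and Gadd45a from -0.12 to 0.05 in line 1 and from -0.06 to 0.11 in line 2. Between the lines, Ccng1 ranged from -0.06 to 0.34, Cdkn1a from -0.24 to 0.39 (94881_at) and -0.05 to 0.32 (98067_at), Phlda3 from -0.08 to 0.22 and Mdm2 from -0.14 to 0.50. Cradd ranged from -0.11 to 0.75 and Cdc25a from -0.02 to 0.40 in the null average. With 2 arrays a line the intervals are wide, and Fas, near background, cannot be compared.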
